A study of Homo sapiens with 136 samples.

Results

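GDC-0879, an ATP-competitive inhibitor of RAF kinases, was given to AsPC-1 cells in 4 of the 136 libraries of the study, which cover 2 human pancreatic cancer cell lines. These 4 are the AsPC-1 libraries whose titles name GDC0879 with hydroxychloroquine (2 libraries) or with VSP34I, the submitters' spelling for Compound 19, an inhibitor of the lipid kinase Vps34 (2 libraries). They were compared with the 12 AsPC-1 libraries titled Alone, which received the same autophagy inhibitor and no kinase inhibitor (6 with hydroxychloroquine, 6 with the Vps34 inhibitor). AsPC-1 is an established line from pancreatic ductal adenocarcinoma and is the only cell model behind the values below. All groups carry an autophagy inhibitor: hydroxychloroquine makes lysosomes less acidic, so that autophagic cargo is not degraded, and Vps34 makes the lipid with which an autophagosome begins. Untreated cells and GDC-0879 without an autophagy inhibitor were not analysed here, so each difference is an effect of GDC-0879 on top of an autophagy inhibitor. Cells grew for 24 h in wells and were treated for 24 h. Per the labels' protocols each drug was used at the concentration that left 80% of cells viable after 48 h on its own; the concentrations themselves are not in the labels. Expression was read by PLATE-Seq, a 3' barcoding method for cells in culture plates, on a plate A and a plate B that each held 1 library of every GDC-0879 combination and 3 alone libraries per autophagy inhibitor. The labels do not say whether replicates were independent cultures, so p-values measure the spread between these libraries, which may be technical.

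RAF kinases take the signal from RAS and phosphorylate MEK, which activates ERK. ERK in turn switches on immediate early and growth genes together with its own brakes, the Sprouty proteins and the dual-specificity phosphatases, so that the transcripts of these brakes follow the activity of the pathway. In cells with mutant RAS, ATP-competitive RAF inhibitors are known to be able to raise ERK activity at some concentrations and to lower it at others.

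Library totals of GDC-0879 lay between 2527469 and 4809338 counts, and those of the alone libraries between 2135931 and 5172291. The share of counts from mitochondrial mRNA was 27.3% ± 3.01 (SD, n = 4) with GDC-0879 and 27.0% ± 2.14 (SD, n = 12) alone, and an exact permutation test within plate and autophagy inhibitor (two-sided, smallest possible p = 0.0039) gave an adjusted p of 0.730. Totals and the shares of ribosomal protein mRNA and of the 10 largest genes gave the same adjusted p. All 11 markers of ductal carcinoma cells were measured, and their summed level was 5197 to 5993 CPM (a gene's counts over the library total, scaled by TMM) with GDC-0879 against 3358 to 4391 alone, with 7 of the 11 rising, where 5.81% of all tested genes did. Immune markers summed to 3.12 to 7.69 CPM against 3.11 to 13.8 alone (PTPRC, CD3E, CD3D and MS4A1 at 0), endothelial markers to at most 1.46 against 1.97 (KDR, CLDN5 and TEK at 0), and acinar and islet markers to at most 0.669 against 1.13 (CPA1, AMY2A, INS, GCG and SST at 0). Fibroblast markers summed to 83.9 to 156 CPM against 44.3 to 85.3. Nearly all of this was the proteoglycan gene LUM, which rose by 0.86 ± 0.15 on the log2 scale, while POSTN was at 0. In bulk libraries, fewer cells of a type and less RNA per cell cannot be told apart.

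Adding GDC-0879 lowered 5 of 9 ERK targets, 13 of 29 ERK-dependent ligand, protease and adhesion genes and vimentin, and raised 19 of 31 epithelial genes and 13 of 31 targets of the antioxidant factor NRF2. Of 12761 genes tested, 742 (5.81%) were higher and 653 (5.12%) lower than with an autophagy inhibitor alone (edgeR quasi-likelihood test over all 68 AsPC-1 libraries, Benjamini-Hochberg adjusted p under 0.05). A further reading that needs no model counts genes whose 4 GDC-0879 libraries all lay outside the 3 alone libraries of their own plate and autophagy inhibitor: 642 genes (5.03%) lay above and 584 (4.58%) below. The median log2 fold change over all tested genes was −0.03. The number of calls moved with single libraries: it was 792 without the Vps34 inhibitor library of plate B and 892 without the hydroxychloroquine library of plate A. Within plate A alone 547 genes passed, and within plate B 265. Of 165 called members of the gene lists below, 93 kept their call without each GDC-0879 library in turn.

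In what follows, the 4 GDC-0879 values of a gene are in CPM and always in the order hydroxychloroquine plate A, hydroxychloroquine plate B, Vps34 inhibitor plate A, Vps34 inhibitor plate B, and alone values are the lowest, the median and the highest of 12 libraries. A log2 fold change is GDC-0879 minus alone, averaged over both autophagy inhibitors, ± its standard error. Counts of list members for GDC-0879 against alone in the main fit stand beside 5.81% higher and 5.12% lower over all genes tested. Fits within a single plate or without a single library called fewer genes over all, so these shares do not match list counts from such fits. Gene positions are from GENCODE release 29 on GRCh38.

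Transcripts of ERK target genes fell in part. ERK activity itself was not measured. Of 9 measured ERK targets 5 were lower and none higher, against 5.12% and 5.81% of all genes, with a median log2 fold change of −0.85. SPRY4 (chromosome 5, 142310427 to 142326455), a Sprouty protein that restrains receptor signalling to RAS, stood at 46.5, 61.2, 20.8 and 58.5 CPM against 62.1, 109 and 190 alone. All 4 libraries lay below every alone library, and SPRY4 fell by 1.36 ± 0.18 (adjusted p = 7.26e-08, edgeR). DUSP6 (chromosome 12, 89347232 to 89353271), the phosphatase that removes the activating phosphates from ERK in the cytoplasm, stood at 29.8, 28.5, 28.4 and 30.8 CPM against 46.8, 70.9 and 90.0. The 4 values were close to each other and below all 12 controls, a fall of 1.26 ± 0.23 (adjusted p = 5.33e-05). DUSP4, its nuclear relative, was at 102, 86.2, 60.3 and 53.9 CPM against 104, 143 and 173, a fall of 0.95 ± 0.12 (adjusted p = 1.24e-08) with no overlap of the groups.

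PHLDA1 (chromosome 12, 76025447 to 76033932), a pleckstrin-homology protein induced by growth factors, stood at 209, 171, 94.6 and 111 CPM against 205, 299 and 349. It fell by 1.00 ± 0.11 (adjusted p = 6.15e-10), and each library lay below all alone libraries of its own autophagy inhibitor. CCND1 (chromosome 11, 69641087 to 69654474), which encodes cyclin D1, the cyclin through which mitogens start the cell cycle, was at 81.6, 107, 85.1 and 69.1 CPM against 87.5, 156 and 238. It fell by 0.85 ± 0.18 (adjusted p = 8.7e-04), with 4 of 4 libraries below all controls of their own autophagy inhibitor; its call is lost within each plate taken alone. The other 4 ERK targets did not pass: EPHA2, an ephrin receptor, had a log2 fold change of −0.38 ± 0.20 (adjusted p = 0.257), SPRY2 −0.46 ± 0.35 (0.477), ETV5 −0.39 ± 0.31 (0.511) and ETV4 0.21 ± 0.44 (0.837). SPRY2, ETV4 and ETV5 were low, at 3.10 to 14.3 CPM in the GDC-0879 libraries, which limits what could be detected. Within plate A 4 of 10 ERK targets passed and within plate B 3 of 9, all lower. Leaving out any 1 GDC-0879 library left 5 lower.

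**Figure D1:**
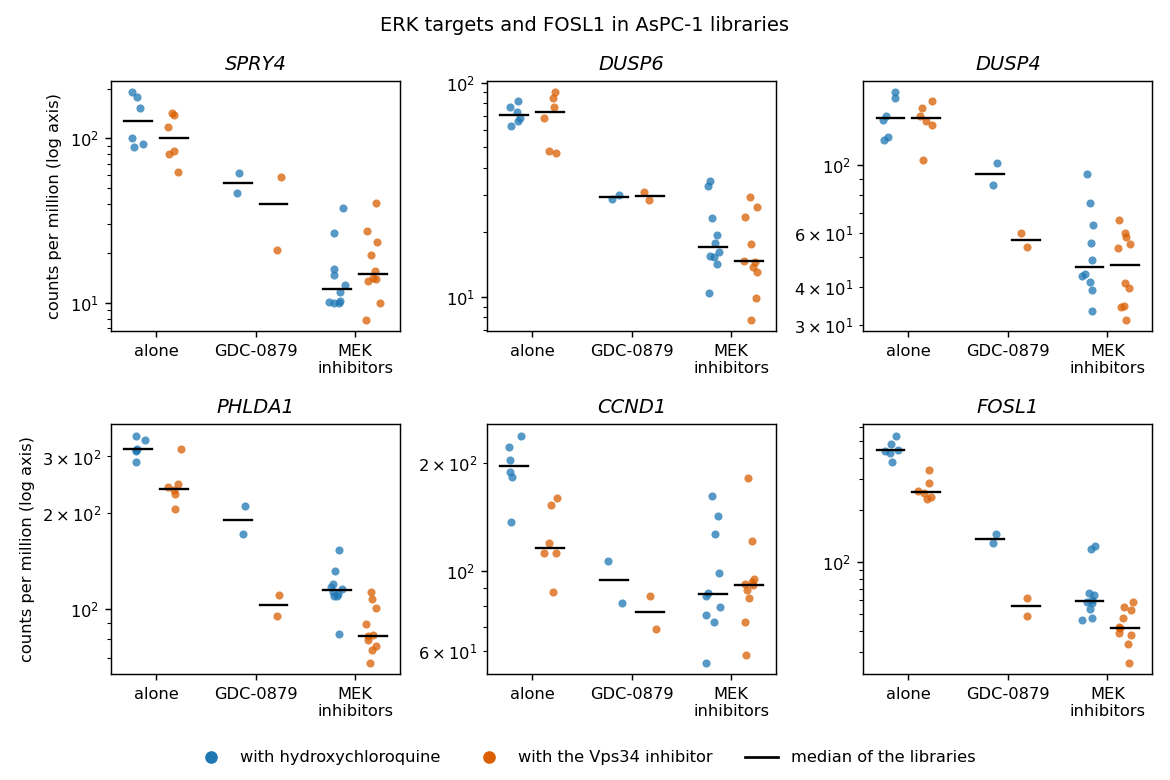
CPM on a log axis of 5 ERK targets and of FOSL1 in the 12 alone, 4 GDC-0879 and 20 MEK inhibitor libraries of AsPC-1, coloured by autophagy inhibitor; bars are medians. The GDC-0879 libraries of SPRY4, DUSP6, DUSP4 and FOSL1 lie below all alone libraries, and most of them above the median of the MEK inhibitor libraries.

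Among 14 further feedback genes 3 were lower and 1 higher (median −0.16). ERRFI1, which binds and inhibits the EGF receptor, was at 69.8, 59.3, 25.9 and 38.0 CPM against 49.5, 86.3 and 128 and fell by 0.84 ± 0.15 (adjusted p = 2.35e-05). The hydroxychloroquine values lay below all alone libraries with hydroxychloroquine (98.1 to 128) and the Vps34 inhibitor values below all those with the Vps34 inhibitor (49.5 to 74.5). The phosphatase gene DUSP7 and RASA1, a GTPase activator that turns RAS off, were also lower, and SPRY1 was higher. The call of DUSP7 (−0.68) was lost without either hydroxychloroquine library or the Vps34 inhibitor library of plate A (lowest size −0.43), and that of SPRY1 (0.85) without the Vps34 inhibitor library of plate A or the hydroxychloroquine library of plate B (0.59). The call of RASA1 (−1.07) was lost in the same 3 fits as that of DUSP7 (lowest size −0.72), so that ERRFI1 alone kept its call without each library.

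Immediate early genes went in both directions: of 30 measured, 3 were lower and 3 higher, with a median of 0.00. FOSL1 (chromosome 11, 65892049 to 65900573), the AP-1 subunit FRA-1 whose gene and protein both depend on ERK, gave the lowest adjusted p of the list. It stood at 144 and 128 CPM with hydroxychloroquine, where alone libraries were at 379 to 537, and at 49.0 and 61.6 CPM with the Vps34 inhibitor, where alone libraries were at 232 to 338. Both pairs lay below all their controls, and FOSL1 fell by 2.0 ± 0.14 (adjusted p = 2.53e-17). FOSL2, the close relative of FOSL1 in the same family, moved the other way: 51.0, 49.3, 25 and 34 CPM against 12, 17.6 and 21.9, a rise of 1.12 ± 0.17 (adjusted p = 9.4e-07) with every library above every control. KLF6, an early zinc-finger factor, fell by 0.53 ± 0.11. HES1 was also lower, and GADD45B and ZFP36 were higher; HES1 lost its call without any 1 of the 4 GDC-0879 libraries and ZFP36 in 3 of these 4 fits.

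Ligands, proteases and adhesion genes listed as ERK-dependent fell together in part: 13 of 29 were lower and 1 higher, with a median of −0.30. This list, like the others, was chosen with earlier results of these data known. Those lower included the protease PLAU, the laminin chain LAMA3, the integrins ITGA6, ITGA2, ITGA3 and ITGB4, the hyaluronan receptor CD44, S100A2, and the EGF receptor ligands EREG, AREG and TGFA. ITGA6, which pairs with ITGB4 to bind laminin, fell by 1.29 ± 0.17. VEGFA, the angiogenic growth factor, was the single member that rose, by 0.69 ± 0.21, a call lost without the hydroxychloroquine library of plate A or the Vps34 inhibitor library of plate B (lowest value 0.49) and within each plate. Leaving out any 1 GDC-0879 library left 11 or 12 lower; EREG, TGFA, ITGA2 and LAMA3 lost their calls in at least 1 of these fits. Within plate A 9 members were lower, and within plate B 4.

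The kinases and adaptors of the pathway itself gave no call. None of 20 measured genes of RAS, RAF, MEK, ERK and their partners passed in either direction (edgeR), and their median was 0.04. The drug's intended target BRAF had a log2 fold change of 0.65 with an adjusted p of 0.364. Of 18 receptor tyrosine kinases and adaptors 2 were lower and 1 higher, where 5.12% of all genes were lower and 5.81% higher. The share of higher members is thus near that of all genes. EGFR was at 216, 281, 220 and 202 CPM against 266, 402 and 654 and fell by 0.81 ± 0.16 (adjusted p = 2.22e-04), with 4 of 4 libraries below all controls of their own autophagy inhibitor. FGFR1 was at 29.1, 16.9, 26.6 and 26.3 CPM against 34.6, 45.6 and 59.5 and fell by 0.88 ± 0.18. The heregulin receptor ERBB3 rose by 0.75 ± 0.25, a call that was lost when any of the 4 GDC-0879 libraries was left out (0.72 to 0.79). Both falls lost their call within plate B.

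The 10 rises with the lowest adjusted p included MUC13, AGR2, VIL1 and TRIM31 and the aldo-keto reductases AKR1C2 and AKR1C3. MUC13 (chromosome 3, 124905442 to 124953819), a transmembrane mucin of gut epithelium, stood at 444, 432, 414 and 336 CPM against 72.2, 91.8 and 108 alone. It rose by 2.13 ± 0.10 (adjusted p = 8.87e-26), and the lowest GDC-0879 library lay far above the highest control. AGR2 (chromosome 7, 16791811 to 16833433), a protein disulfide isomerase needed for mucin folding, was at 54.6, 42.3, 96.6 and 93.0 CPM against 4.03, 9.58 and 15, and rose by 2.83 ± 0.17 (adjusted p = 4.7e-19). VIL1, villin of the microvillus core, was at 127, 137, 120 and 111 CPM against 21.1, 37 and 52.3. TRIM31, a ubiquitin ligase of the gut, was at 130, 124, 65.6 and 99.3 CPM against 17.1, 26.6 and 38.4. The 4 libraries lay above all 12 controls for each of these genes; VIL1 rose by 1.78 ± 0.11 and TRIM31 by 1.92 ± 0.11.

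AKR1C2, which reduces steroids and reactive carbonyls, was the most abundant of these 10 rises, at 2325, 2467, 2704 and 2927 CPM against 549, 876 and 1555, a rise of 1.61 ± 0.07 (adjusted p = 8.87e-26). AKR1C3 was at 878, 939, 1209.5 and 1222 CPM against 206, 384 and 724 and rose by 1.44 ± 0.09. The AKR1C genes are near-identical copies in 1 cluster, so reads may have been split between them and the single values are uncertain. TM4SF4, a tetraspanin-like membrane protein, rose by 1.54 ± 0.10, the epithelial defensin DEFB1 by 1.85 ± 0.13, and the galectin LGALS2 by 1.73 ± 0.13. ANXA4, an annexin of secretory epithelia, was at 1063, 1016, 835 and 977 CPM against 446, 498 and 605 and rose by 0.92 ± 0.07. All 4 libraries lay above all controls for each of these genes as well.

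The falls with the lowest adjusted p included, beside FOSL1, VIM, FERMT1 and ASPH. VIM (chromosome 10, 17228259 to 17237593), the intermediate filament vimentin of mesenchymal cells, was at 1414.5, 1390, 1200 and 1342 CPM against 2661, 2932 and 3434. It fell by 1.16 ± 0.07 (adjusted p = 1.59e-19), with narrow spread on both sides and no overlap. FERMT1, kindlin-1, which activates integrins, was at 38.9, 60.0, 54.7 and 53.6 CPM against 170, 230 and 304 and fell by 2.15 ± 0.14 (adjusted p = 5.98e-19). ASPH, a hydroxylase of EGF-like domains, was at 767 and 905 CPM with hydroxychloroquine and at 1258 and 1308 CPM with the Vps34 inhibitor, where alone libraries were at 1356 to 1775 and at 2143 to 3011. It fell by 0.94 ± 0.10. The transcriptional corepressor subunit DRAP1 fell by 1.08 ± 0.09, the neuropilin-like receptor DCBLD2 by 1.47 ± 0.13, the adhesion molecule CLMP by 1.34 ± 0.13 and KIAA0040 by 1.83 ± 0.18. Each of these lay below all controls in 4 of 4 libraries.

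**Figure D2:**
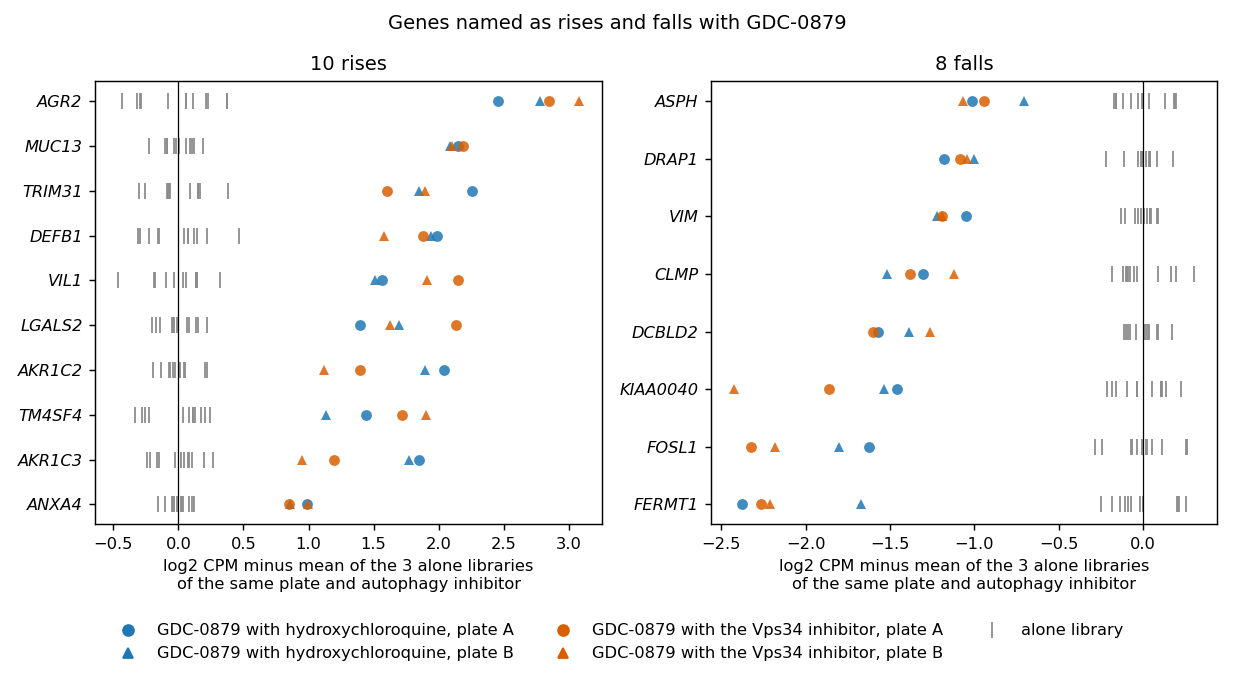
Log2 CPM of each GDC-0879 library minus the mean of the 3 alone libraries of its plate and autophagy inhibitor, for 10 rises and 8 falls named by adjusted p; grey ticks are the alone libraries around that mean, circles are plate A and triangles plate B. The GDC-0879 points of each gene lie on one side of zero in both plates and with both autophagy inhibitors, which the rule required, and away from the ticks.

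Epithelial genes rose: of 31 measured genes 19 were higher and 0 lower, with a median of 0.73. Claudins and other junction and adhesion proteins made up much of it (CLDN1, CLDN3, CLDN4, CLDN7, OCLN, JUP, CDH1, EPCAM). The others were the keratins KRT8, KRT18 and KRT19, ST14, MUC1, LCN2, TSPAN1, AGR2 and the regulators ELF3, OVOL2 and ESRP1. CLDN3 was at 49.2, 49.3, 47.6 and 38.8 CPM against 7.08, 12.4 and 18.6 and rose by 1.95 ± 0.16 (adjusted p = 1.65e-14). ELF3, an epithelial ETS factor, was at 135, 131, 159 and 156 CPM against 41.0, 65.7 and 75.9 and rose by 1.25 ± 0.10 (adjusted p = 1.66e-15). CDH1, E-cadherin of adherens junctions, was at 51.0, 67.0, 32.4 and 38.2 CPM against 8.71, 18.4 and 30.4 and rose by 1.38 ± 0.16. In each of these the groups did not overlap. KRT18, at 1943 to 2504 CPM against 1063 to 1902 alone, rose by 0.63 ± 0.06; it has processed pseudogenes that could share its reads. Leaving out any 1 GDC-0879 library left 15 to 17 members higher; ESRP1, OVOL2, KRT19, CLDN4 and TSPAN1 lost their calls in at least 1 of these fits. Within plate A 13 of 32 passed and within plate B 9 of 32.

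The mesenchymal list was less uniform, with 4 of 18 lower and 1 higher (median −0.27). Over all genes 5.12% were lower and 5.81% higher, so the share of higher members is near that of all genes. VIM, the repressor SNAI2, the ectonucleotidase NT5E and the E-cadherin repressor ZEB1 were lower, and the tropomyosin TPM2 was higher by 0.22, a call lost without any 1 of the 4 GDC-0879 libraries (0.19 to 0.25) and within each plate. The 4 lower members kept their calls without each GDC-0879 library. SNAI2 was at 53.6, 65.8, 27.7 and 24.8 CPM against 45.7, 78.9 and 122 and fell by 1.03 ± 0.17 (adjusted p = 9.55e-06). The hydroxychloroquine library of plate B lay within the range of the alone libraries with hydroxychloroquine (59.3 to 122), and the other 3 lay below all controls of their own autophagy inhibitor. NT5E fell by 0.90 ± 0.13.

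Targets of NRF2, the transcription factor of the antioxidant response, rose: 13 of 31 were higher and 1 lower, with a median of 0.35. Beside the AKR1C genes, the higher members included AKR1B10, EPHX1, NQO1, GPX2, the ferritin chains FTH1 and FTL, PGD of the pentose phosphate pathway, UGDH and SLC48A1. The calls of PGD, UGDH and SLC48A1 were lost without at least 1 GDC-0879 library. FTH1, the heavy chain that stores iron, was at 4797, 4679, 5186 and 5421 CPM against 2864, 3225 and 3809 and rose by 0.64 ± 0.07 (adjusted p = 7.42e-11); it too has processed pseudogenes. SLC7A11, the cystine importer that feeds glutathione synthesis, went the other way within the list. It was at 19.0, 14.6, 19.7 and 28.8 CPM against 46.6, 58.0 and 93.5, below all controls, and fell by 1.63 ± 0.24 (adjusted p = 1.89e-06). SLC7A11 is also an ATF4 target. Of 36 members of that list 3 were higher and 1 lower, where 5.81% of all genes were higher and 5.12% lower.

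Sterol and fatty acid synthesis genes gave 8 higher and 1 lower of 35 (median 0.26). The synthetic enzymes MSMO1, SCD, TM7SF2, SC5D, FDFT1 and CYP51A1 were higher with INSIG1 and SREBF1. MSMO1, a sterol oxidase, was at 284 and 292 CPM with hydroxychloroquine and at 148 and 186 CPM with the Vps34 inhibitor against 114, 134 and 250 alone. It rose by 0.57 ± 0.11 (adjusted p = 7.6e-05), SCD, the fatty acid desaturase, by 0.60 ± 0.12 and TM7SF2, a sterol reductase, by 1.16 ± 0.23. The count of higher members was 4 without the Vps34 inhibitor library of plate B and 5 without either hydroxychloroquine library; FDFT1, CYP51A1, INSIG1 and SREBF1 lost their calls without at least 1 GDC-0879 library. Within plate B 1 member was higher, and within plate A 4.

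Lysosomal genes gave 10 higher and 1 lower of 39 (median 0.28). LAMP2, a membrane glycoprotein of the lysosome, was at 72.9, 63.9, 65.8 and 72.5 CPM against 37.1, 46.0 and 56.8 and rose by 0.59 ± 0.12 (adjusted p = 4.34e-04). CTSL, the protease cathepsin L, ran against the list at 48.0, 31.9, 41.2 and 27.4 CPM against 54.7, 71.3 and 94.6 and fell by 0.94 ± 0.15 (adjusted p = 7.47e-06). Both lay outside all controls in 4 of 4 libraries. The count of higher members was 6 without the Vps34 inhibitor or the hydroxychloroquine library of plate A. Within plate A 7 members were higher, and within plate B none (edgeR). Of 36 autophagy genes 3 were higher and 2 lower, shares near the 5.81% and 5.12% of all genes. ATG12, a ubiquitin-like protein conjugated on the growing autophagosome, fell by 0.76 ± 0.10 (174, 159, 119 and 121 CPM against 214, 230 and 308) and ATG16L1, which binds the ATG12 conjugate, fell by 0.97 ± 0.19; both calls held without each GDC-0879 library. The higher ones were the cargo receptors SQSTM1 (0.42), NBR1 (0.41) and CALCOCO2 (0.47), and none of the list was higher without the hydroxychloroquine library of plate A (edgeR).

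**Figure D3:**
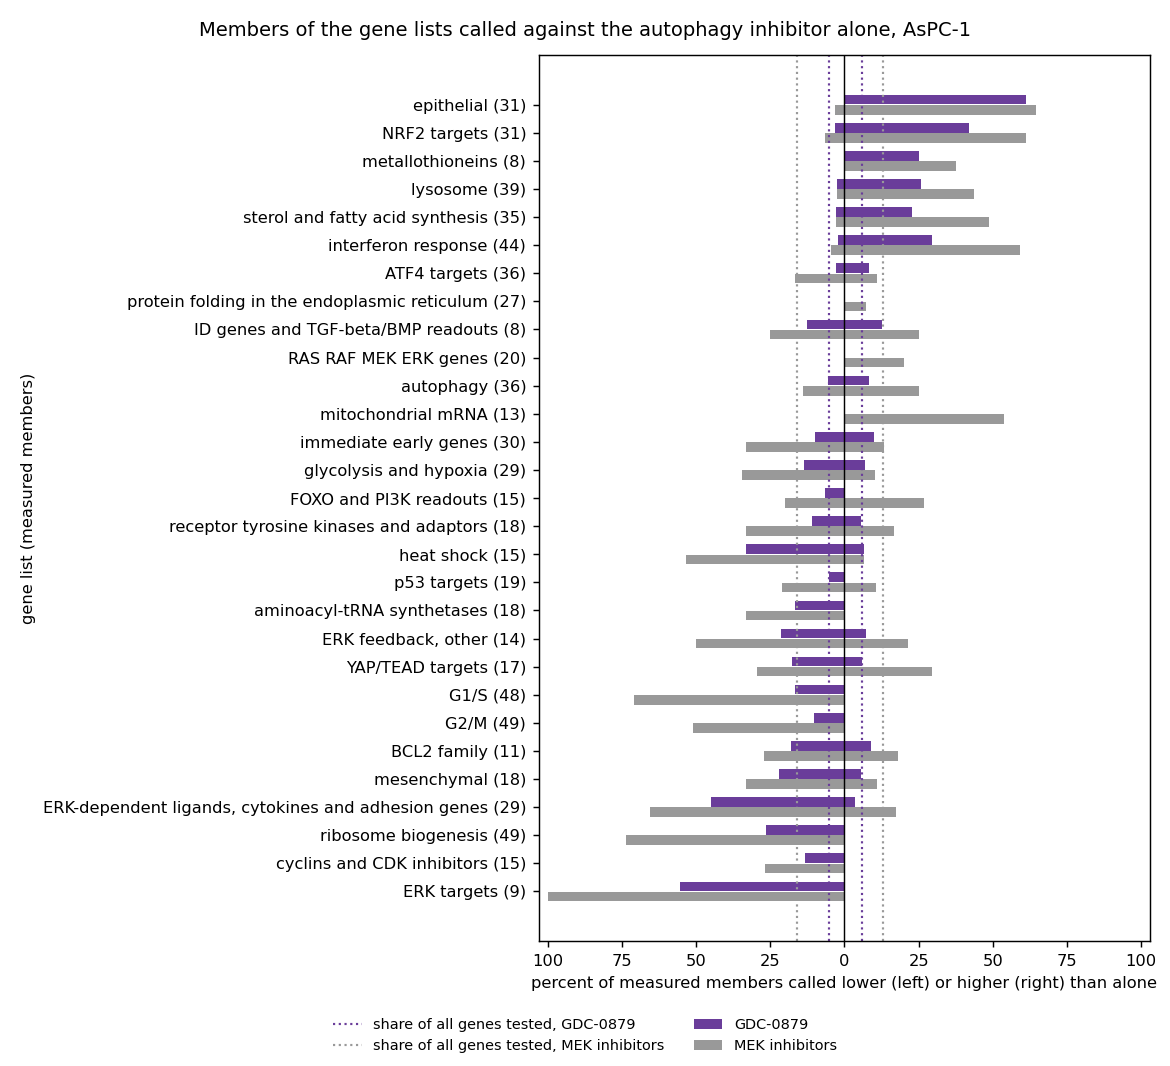
Percent of the measured members of each gene list (number in brackets) that were higher (right) or lower (left) than alone, for GDC-0879 in purple and for the 5 MEK inhibitors in grey; dotted lines are the same percent over all genes tested. Epithelial genes reach furthest to the right for GDC-0879 and ERK targets furthest to the left, and the grey bars of G1/S and ribosome biogenesis reach further left than the purple ones.

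Of 49 ribosome biogenesis genes 13 were lower and none higher (median −0.32), where 5.12% of all genes were lower, among them the helicase DDX21, EBNA1BP2, which assembles the large subunit, and CD3EAP, a subunit of RNA polymerase I. DDX21 was at 270, 271, 238 and 211 CPM against 259, 379 and 477 and fell by 0.64 ± 0.12 (adjusted p = 5.11e-05), with each library below all controls of its own autophagy inhibitor. EBNA1BP2 fell by 0.57 ± 0.11 and CD3EAP by 0.87 ± 0.17. Leaving out any 1 GDC-0879 library left between 9 and 12 lower. Replication genes of G1/S gave 8 lower and none higher of 48 (median −0.24), and mitotic genes of G2/M 5 lower and none higher of 49 (median −0.26). DNMT1, the maintenance DNA methyltransferase, was at 37.8, 49.3, 27.5 and 43.9 CPM against 56.1, 71.2 and 175 and fell by 1.05 ± 0.22. MKI67, the proliferation marker, was at 69.0, 55.0, 57.0 and 55.6 CPM against 61.0, 91.1 and 140 and fell by 0.68 ± 0.16 (adjusted p = 0.00228). Without any 1 of the 4 GDC-0879 libraries, 2 or 3 genes of G1/S and between 1 and 3 of G2/M were lower. Fewer of all genes passed in these fits as well, 792 without the Vps34 inhibitor library of plate B against 1395 with every library. The 5.12% is therefore not the matching share for them. DNMT1 and MKI67 kept their calls in each of these fits. Within plate A 2 genes of G1/S and none of G2/M passed, and within plate B none of either (edgeR).

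Heat shock genes gave 5 lower and 1 higher of 15 (median −0.12). HSPH1, a nucleotide exchange factor for HSP70, was at 83.8, 91.6, 81.1 and 83.9 CPM against 120, 147 and 183 and fell by 0.81 ± 0.13 (adjusted p = 3.52e-06) without overlap. The chaperones HSP90AA1 and HSPA8, which have processed pseudogenes, fell by 0.84 ± 0.14 and 0.39 ± 0.08, and HSPD1 and DNAJA1 were also lower, while the small heat shock protein gene HSPB1 was higher. HSPD1, DNAJA1 and HSPB1 lost their calls without at least 1 GDC-0879 library. The count of lower members was 3 without the hydroxychloroquine library of plate B. Of 27 folding genes of the endoplasmic reticulum none passed in either direction (edgeR), and of 18 aminoacyl-tRNA synthetases 3 were lower.

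Interferon-response and antigen-presentation genes gave 13 higher and 1 lower of 44 (median 0.24). The higher members included the class I genes HLA-B, HLA-C, HLA-E and B2M, the peptide loading protein TAPBP, the immunoproteasome subunits PSMB8 and PSMB9, IFITM2, IFITM3, OAS1, IFI35, ISG20 and IRF1, and OASL was lower. HLA-B, HLA-E, TAPBP, PSMB8, IFI35 and OASL lost their calls without at least 1 GDC-0879 library. ISG20, an exonuclease, was at 27.1, 45.8, 28.8 and 31.4 CPM against 7.34, 12.7 and 22.9 and rose by 1.33 ± 0.17 (adjusted p = 3.85e-08). IFITM2 rose by 0.66 ± 0.09 and HLA-C, whose reads can be shared with other class I genes, by 0.69 ± 0.13. Within plate A 7 members were higher, and within plate B 2.

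Of 29 glycolysis and hypoxia genes 2 were higher, a share near the 5.81% of all genes, and 4 lower, of which 1 was left without the hydroxychloroquine library of plate B. CA9, carbonic anhydrase 9, which exports acid, was at 52.6, 73.9, 79.1 and 118 CPM against 13.8, 20.1 and 40.8 and rose by 1.83 ± 0.16 (adjusted p = 1.16e-13). PKM, pyruvate kinase, was at 1338, 1307, 1147 and 1160 CPM against 1505, 1753 and 2684 and fell by 0.56 ± 0.11 (adjusted p = 1.05e-04). Neither gene overlapped with its controls, and both kept their calls without each GDC-0879 library. MCL1, the short-lived survival protein of the BCL2 family, was at 13.2, 11.2, 8.86 and 6.85 CPM against 18.6, 30.1 and 51.2, and fell by 1.59 ± 0.28 (adjusted p = 2.05e-05). It was 1 of 2 lower members of 11 in that family; the other, PMAIP1 (−1.13), lost its call in 3 of the 4 fits without 1 GDC-0879 library (lowest size −0.93), and the single higher member, BIK (1.27), in all 4 (1.18 to 1.35). Of the 13 mRNAs of mitochondrial DNA none passed (edgeR).

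The response was then read with each autophagy inhibitor on its own, which sets 2 GDC-0879 libraries against 6. With hydroxychloroquine 632 genes passed, 376 (2.95%) higher and the rest (2.01%) lower, and with the Vps34 inhibitor 305 (2.39%) were higher and 217 (1.7%) lower. With a single GDC-0879 library left, 253 or 259 genes passed with hydroxychloroquine and 184 or 230 with the Vps34 inhibitor, where the lone library is taken to vary like the other groups. The arms share no library. Of the 632 genes called with hydroxychloroquine 595 had the same sign with the Vps34 inhibitor, of the 522 called with the Vps34 inhibitor 499 had the same sign with hydroxychloroquine, and all 263 called in both had the same sign. FOSL1 fell by 1.72 ± 0.20 with hydroxychloroquine and by 2.27 ± 0.21 with the Vps34 inhibitor. MUC13 rose by 2.12 ± 0.14 and 2.15 ± 0.14, and VIM fell by 1.13 ± 0.10 and 1.2 ± 0.10. Across 3472 genes (mean log2 CPM 5 or more) the log2 fold changes of the arms had a Pearson correlation of 0.47. This is across genes, which are not independent replicates.

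The difference between the arms passed for 1 gene in each direction (0.00784% and 0.00784%), and 583 genes had an unadjusted p under 0.05 (edgeR). Both calls rested on a single library. PAFAH1B2 (chromosome 11, 117144267 to 117176894) was at 244, 213, 8881 and 213 CPM against 212, 236 and 690 alone, and DIS3L (chromosome 15, 66293217 to 66333898) at 6.72, 249, 9.53 and 8.56 CPM against 7.27, 9.16 and 19.0. Without the library that stands apart the difference of PAFAH1B2 went from 4.75 to 0.39 and that of DIS3L from −4.48 to −0.18. Both genes also count among the rises of the averaged response (1.86 ± 0.34 and 1.73 ± 0.35), where without that library their values were −0.30 and −0.43. They were chosen for mention after their values were seen. Among the ERK targets, DUSP4 had the lowest adjusted p for the difference (−0.66 ± 0.23, adjusted p = 0.787), with falls of 0.62 ± 0.17 with hydroxychloroquine and 1.29 ± 0.17 with the Vps34 inhibitor.

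Blocking MEK, the step below RAF, gave the reference for the size of the response. Every drug was at a viability-based concentration that the labels do not give, so drug and dose cannot be told apart. The 20 libraries of 5 MEK inhibitors (trametinib, cobimetinib, binimetinib, selumetinib and refametinib, which the labels also spell Refamatinib and Rafametinib) were compared with the same 12 alone libraries. There, 1642 genes (12.9%) were higher and 2050 (16.1%) lower. With 4 libraries each, like GDC-0879 with 1395 calls, selumetinib gave 950, trametinib 1962, cobimetinib 2039, binimetinib 2050 and refametinib 2249. The larger number of libraries raises such a count, and the shared controls tie both contrasts, so their values are given side by side and the difference was tested directly between the GDC-0879 and the MEK inhibitor libraries, without controls. In that direct contrast 83 genes (0.65%) were higher with GDC-0879 and 40 (0.313%) lower, and 1443 had an unadjusted p under 0.05. This count was sensitive to single libraries. It was 26 without the Vps34 inhibitor library of plate B, 55 without the hydroxychloroquine library of plate A, 71 without that of plate B, and 85 without the Vps34 inhibitor library of plate A.

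At the concentrations used, SPRY4, FOSL1, DUSP4 and PHLDA1 were less reduced by GDC-0879 than by MEK inhibitors. SPRY4 had a median of 14.1 CPM in MEK inhibitor libraries (7.89 to 40.3), and 3 of 4 GDC-0879 libraries lay above the highest of them. It was higher with GDC-0879 by 1.49 ± 0.15 (adjusted p = 1.37e-09). FOSL1 had a median of 53.2 CPM (26.0 to 124) and was higher by 0.71 ± 0.12 (adjusted p = 1.43e-04), with both hydroxychloroquine libraries above the MEK inhibitor range. DUSP4 (46.7, range 31.3 to 93.3) was higher by 0.58 ± 0.11 (adjusted p = 4.14e-04) and PHLDA1 (108, range 67.5 to 153) by 0.49 ± 0.10 (adjusted p = 0.00291). DUSP6 had a difference of 0.74 ± 0.20 with an adjusted p of 0.0525. CCND1 fell by 0.70 with MEK inhibitors and by 0.85 with GDC-0879, a difference of −0.15 ± 0.17 (adjusted p = 0.826). In all, 3 of 9 ERK targets were higher with GDC-0879 than with MEK inhibitors and none lower, where 0.65% of all genes were higher. Leaving out any 1 GDC-0879 library left 1 to 3 higher. Within plate A 0 of 10 passed and within plate B 1 of 9. With plate left out 2 of 9 were higher, and with DESeq2 5 of 9. The call of SPRY4 was lost within plate A and that of FOSL1 within each plate. Over all alternatives the difference ran from 1.17 to 1.78 for SPRY4 and from 0.62 to 0.79 for FOSL1. The single MEK inhibitors lowered SPRY4 by 1.86 (selumetinib) to 3.57 (trametinib) and FOSL1 by 2.10 (selumetinib) to 3.03 (refametinib), each beyond the fall with GDC-0879; the difference from each of them was not tested.

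Outside the ERK targets, the neuropeptide precursor VGF fell by 0.64 with GDC-0879 and by 1.79 with MEK inhibitors, a difference of 1.15 ± 0.14 (adjusted p = 2.66e-07). KIAA0040 differed by 1.10 ± 0.15 and the anthrax toxin receptor gene ANTXR2, a collagen-binding receptor, by 0.97 ± 0.15. The epithelial integrin activator FERMT1 was also higher, by 0.65 ± 0.12 (adjusted p = 3.4e-04), with VIM higher by 0.29 ± 0.06 (adjusted p = 0.00639) and SNAI2 by 0.86 ± 0.15 (adjusted p = 3.4e-04). On the other side, ALDH1A1, a retinaldehyde dehydrogenase, was at 21.9, 22.3, 42.8 and 33.1 CPM with GDC-0879, 4.97 to 16.9 alone and 20.6 to 115 (median 64.3) with MEK inhibitors. It rose with both and was lower with GDC-0879 by 1.07 ± 0.17 on the log2 scale (difference −1.07, adjusted p = 8.46e-05). The long noncoding RNA LINC01133 differed by −0.98 ± 0.16, the phospholipase PLAAT4 by −0.91 ± 0.15, the apoptosis inhibitor BIRC3 by −0.93 ± 0.16, ELF3 by −0.56 ± 0.10 and AKR1C2 by −0.45 ± 0.08.

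For other genes the response to GDC-0879 was close in size to that of MEK inhibitors, and no difference was called. MUC13 differed by −0.04 (95% interval −0.25 to 0.16), VIL1 by 0.08 (−0.15 to 0.30) and AGR2 by −0.11 (−0.46 to 0.23). These intervals bound the differences of single genes and are not adjusted over genes. Over all genes, MEK inhibitors gave 12.9% higher and 16.1% lower, and GDC-0879 5.81% and 5.12%. The direct contrast gave 0.65% higher and 0.313% lower. List counts of MEK inhibitors also rest on 20 libraries, those of GDC-0879 on 4. Of the lists, epithelial genes gave 20 higher of 31 with MEK inhibitors (GDC-0879: 19) and 1 call in each direction in the direct contrast. NRF2 targets gave 19 higher of 31 (GDC-0879: 13) with 3 lower in the direct contrast. G1/S genes gave 34 lower of 48 (GDC-0879: 8), with 3 higher in the direct contrast, and interferon-response genes 26 higher of 44 (GDC-0879: 13), with 2 lower in it. For ribosome biogenesis MEK inhibitors lowered 36 of 49 (GDC-0879: 13), and the direct contrast gave none in either direction (edgeR). The log2 fold changes of GDC-0879 with hydroxychloroquine and of MEK inhibitors with the Vps34 inhibitor, which share no library, had a correlation of 0.51 over the same 3472 genes, those of GDC-0879 with the Vps34 inhibitor and MEK inhibitors with hydroxychloroquine 0.50, and the MEK inhibitor arms among themselves 0.68.

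GDC-0879 was set against the other 4 RAF inhibitors, each with 4 AsPC-1 libraries in the same layout. Adjusted p-values in these 4 pairs cover all genes and all pairs together. Each drug was at its own viability-based concentration, which the labels do not give, so the pairs are matched in time and autophagy inhibitor but not known to be matched in dose. Against alone, 1395 genes passed for GDC-0879, 1616 for RAF709, 389 for dabrafenib, 97 for PLX8394 and 13 for sorafenib.

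RAF709, a pan-RAF inhibitor, gave the fewest differences of the 4 pairs: 48 genes (0.376%) were higher and 44 (0.345%) lower with GDC-0879, and 1129 had an unadjusted p under 0.05. Without the Vps34 inhibitor library of GDC-0879 on plate B the total went from 92 to 18; without the hydroxychloroquine libraries it was 56 (plate A) and 59 (plate B). SLC10A3, a member of the bile acid transporter family, was at 153, 173, 105 and 127 CPM with GDC-0879 and at 83.3, 73.0, 58.7 and 82.0 CPM with RAF709, a difference of 0.89 ± 0.19 (adjusted p = 0.00176) without overlap. ANTXR2 was higher by 0.92 ± 0.20 (adjusted p = 0.00292). PLIN3, which coats lipid droplets, was at 23.7, 14.2, 25 and 21.7 CPM with GDC-0879 and at 41.6, 55.2, 26.4 and 51.8 CPM with RAF709, a difference of −1.05 ± 0.23 (adjusted p = 0.00228). SPRY4 was at 20.3, 27.6, 20.3 and 27.7 CPM with RAF709 and higher with GDC-0879 by 0.90 ± 0.22 (adjusted p = 0.0073). This call was lost without the GDC-0879 library with hydroxychloroquine on plate A (0.81, adjusted p = 0.0556) or with the Vps34 inhibitor on plate B (0.66, adjusted p = 0.176), and within each plate.

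Other genes that carried the response showed no call between these drugs. FOSL1 differed by 0.44 (95% interval 0.12 to 0.75, adjusted p = 0.132), PHLDA1 by 0.40 (0.14 to 0.67, adjusted p = 0.0832), DUSP6 by 0.40 (−0.15 to 0.94) and DUSP4 by 0.18 (−0.10 to 0.46). MUC13 differed by 0.14 (−0.12 to 0.40), VIL1 by 0.04 (−0.25 to 0.34), AGR2 by −0.02 (−0.46 to 0.42) and VIM by 0.19 (0.02 to 0.36). The unadjusted intervals of FOSL1, PHLDA1 and VIM lay above zero, and the others included zero. An interval that includes zero bounds a difference and does not show that the drugs act alike.

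In the pair with dabrafenib, which was developed against mutant BRAF, 139 genes (1.09%) were higher with GDC-0879 and 111 (0.87%) lower, 250 in all, or 122 without the GDC-0879 library with the Vps34 inhibitor on plate B and 160 without that on plate A. ANXA4 was at 440, 530, 405 and 422 CPM with dabrafenib, below all 4 GDC-0879 libraries, and higher with GDC-0879 by 1.12 ± 0.09 (adjusted p = 6.76e-14). KRT18 was higher by 0.95 ± 0.08 and TM4SF4 by 1.33 ± 0.14. SLC6A20, a proline transporter, was at 57.9, 105, 37.7 and 38.2 CPM with GDC-0879 and at 13.0, 24.4, 4.70 and 3.69 CPM with dabrafenib, a difference of 2.65 ± 0.25 (adjusted p = 7.03e-12). The hormone gene FGF19 was higher by 1.46 ± 0.16. Against alone, SLC6A20 rose by 1.29 ± 0.17 with GDC-0879 and fell by 1.36 ± 0.22 with dabrafenib.

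On the other side, ASNS, asparagine synthetase, was at 35.8, 38.1, 69.1 and 90.2 CPM with GDC-0879 and at 75.3, 92.8, 289 and 243 CPM with dabrafenib, a difference of −1.46 ± 0.17 (adjusted p = 3.91e-09) with every dabrafenib library above the GDC-0879 library of its plate and autophagy inhibitor. Against alone, ASNS rose by 0.50 ± 0.13 with GDC-0879. PSAT1, of serine synthesis, differed between the 2 drugs by −1.30 ± 0.20 (adjusted p = 8.23e-06). ASPH differed by −0.70 ± 0.11 and FOSL1 by −0.94 ± 0.16 (adjusted p = 3.12e-05). DUSP4 differed by −0.61 ± 0.14 (adjusted p = 0.004). SPRY4 had a difference of −0.34 (95% interval −0.75 to 0.08, adjusted p = 0.509) and PHLDA1 one of −0.28 (−0.54 to −0.02, adjusted p = 0.311).

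The pairs with PLX8394 and sorafenib gave the most calls. Against PLX8394, described as a RAF inhibitor that avoids paradoxical activation, 411 genes (3.22%) were higher with GDC-0879 and 361 (2.83%) lower, 772 in all, or 472 without the GDC-0879 library with the Vps34 inhibitor on plate B and 514 without that with hydroxychloroquine on plate A. AGR2 was higher by 3.11 ± 0.26, MUC13 by 1.99 ± 0.14 (adjusted p = 7.95e-17), VIL1 by 1.95 ± 0.16 and AKR1C2 by 1.35 ± 0.10, while FERMT1 differed by −2.23 ± 0.16, FOSL1 by −2.15 ± 0.16, VIM by −1.15 ± 0.08 and DRAP1 by −1.08 ± 0.10. MSMO1 was at 56.3, 88.3, 68.4 and 69.8 CPM with PLX8394, below every GDC-0879 library, and the difference was 1.64 ± 0.14 (adjusted p = 1.64e-13). The PLX8394 values were also below every alone library, and against alone MSMO1 rose by 0.57 ± 0.11 with GDC-0879. ASNS, at 55.5, 89.3, 284 and 348 CPM with PLX8394, differed by −1.48 ± 0.17, although against alone it rose by 0.50 ± 0.13 with GDC-0879.

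Against sorafenib, an inhibitor of RAF and of receptor kinases, 261 genes (2.05%) were higher and 228 (1.79%) lower, 489 in all, or 305 without the GDC-0879 library with the Vps34 inhibitor on plate B. The differences were 2.60 ± 0.24 for AGR2, 2.16 ± 0.15 for TRIM31, 1.83 ± 0.10 for AKR1C2, 1.79 ± 0.13 for MUC13 and 1.37 ± 0.12 for AKR1C3. On the lower side they were −2.05 ± 0.16 for FERMT1, −1.73 ± 0.16 for FOSL1, −1.52 ± 0.14 for DCBLD2 and −1.19 ± 0.08 for VIM. SPRY4 had a log2 fold change against alone of −1.36 with GDC-0879, −2.26 with RAF709, −1.02 with dabrafenib, 0.19 with PLX8394 and 0.26 with sorafenib. The last pair of values did not pass, and the direct differences of GDC-0879 from PLX8394 (−1.54 ± 0.21) and from sorafenib (−1.62 ± 0.21) did.

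**Figure D4:**
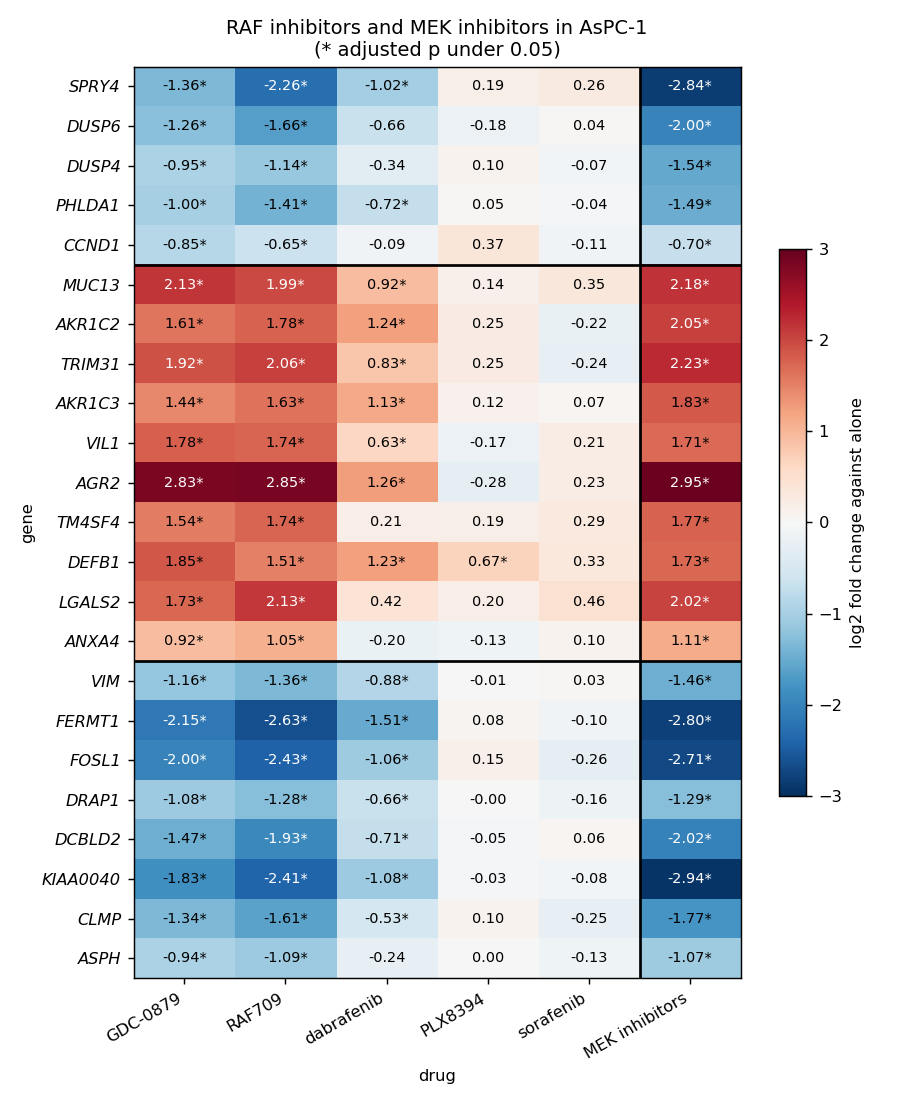
Log2 fold change against the 12 alone libraries of 5 ERK targets, 10 rises and 8 falls, for the 5 RAF inhibitors and the MEK inhibitors, which share these controls; a star marks an adjusted p under 0.05. The columns of GDC-0879, RAF709 and MEK inhibitors carry strong colours with the same signs, dabrafenib is paler, and PLX8394 and sorafenib are near zero for most genes.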

How the data were processed

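Analysis began from raw counts per gene as deposited by the authors, whole numbers for 25435 symbols (5949 without a count in AsPC-1). The submitters' processing notes name kallisto 0.44.0 and GRCh38, but their roles and the annotation are not given in the sources. Titles gave line, treatment and plate. No column was left without a sample.

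All 68 AsPC-1 libraries (30 treatment groups) were fitted once with edgeR 4.0.16 (R 4.3.3; TMM factors, filterByExpr by group, plate as a term, robust quasi-likelihood, 37 residual degrees of freedom), which left 12761 genes. Spread is therefore shared with the other drugs. Tests are two-sided with Benjamini-Hochberg adjustment and a threshold of 0.05. The 95% intervals are from the same fit and unadjusted. DESeq2 1.42.0, other filters, scalings and designs, and leaving out each library were alternatives; the alternatives for PAFAH1B2 and DIS3L were chosen after seeing the data. Depth was 1419228 to 5172291 counts (median 3351744.5), which limits genes of a few CPM. In a simulation of this contrast with 12647 genes, 3 of 67 changes of 1.5-fold, 23 of 67 of 2-fold and 44 of 66 of 4-fold were recovered, with 5 false calls among 12448 unchanged genes, so a gene without a call may have changed. The members, the 36 gene lists (807 of 843 genes in the file) and the comparisons were chosen with earlier results of these data known. Genes were named by a rule: all ERK targets, up to 3 called members of each other list, and the 10 rises and 10 falls with the lowest adjusted p at a mean log2 CPM of at least 3 whose 4 libraries lay on one side of their matched controls, with up to 5 per direction in each direct contrast. Further list members are named where all called members are given. Some genes that the rule names are given only in the closing section or not at all, and some results are not reported here.

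Deviations from the group means were weakly shared between libraries of a plate (correlations −0.03 between the GDC-0879 arms, 0.05 and 0.15 with the alone libraries), while the plate term itself passed for 1604 genes. No replicates were near-duplicates (lowest chi-square per degree of freedom 8.13 over 32 pairs), and log2 values of the GDC-0879 replicates correlated at 0.93 and 0.94. Positions were found for 104 of 108 names in GENCODE release 29. Python 3.11.15, pandas 2.3.3, NumPy 2.4.6 and Matplotlib 3.10.9 were used.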

Additional observations from a re-analysis of the deposited data

Results flagged for a closer look

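Among 202 groups of 6 alone libraries, examined for 97 genes named in the text and 4 library totals and shares, 7 held a library far from the other 5, and chance alone flags about 1 in 20 groups. With hydroxychloroquine alone, 1 library of plate A had a low DRAP1 level of 656.6 CPM where the others lay between 788.0 and 864.9, and 1 library of plate A a high DNMT1 level of 175.3 CPM where the others lay between 63.88 and 101.8. In the same group 1 library of plate B had 689.6 CPM of PAFAH1B2, with the others between 225.0 and 279.8, and 1 library of plate A had 13.36 CPM of BAMBI, with the others between 6.399 and 8.62. With the Vps34 inhibitor alone, EGFR reached 654.2 CPM in 1 library of plate A (others 265.7 to 343.4), RRBP1 132.8 CPM in 1 library of plate A (others 33.36 to 63.73) and MSMO1 138.8 CPM in 1 library of plate B (others 114.2 to 122.6). The response to GDC-0879 differed between the autophagy inhibitors, by a test of the difference itself, for PAFAH1B2 (4.75 on the log2 scale, Vps34 inhibitor minus hydroxychloroquine) and DIS3L (−4.48), each through 1 GDC-0879 library.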

How the results depend on the processing

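Of 145 gene results, 71 kept direction and side of the threshold under every alternative run, 73 lost a call in at least 1 and 3 changed sign. For GDC-0879 against alone, 1394 genes passed with DESeq2 size factors, 1187 without a filter, 1456 with a stricter filter, 1188 with no replicate block (plate left out), 1293 in an additive design, 1488 in a fit of the 16 GDC-0879 and alone libraries and 1625 with DESeq2, against 1395. Additive and within-plate designs give no value for single autophagy inhibitors or their difference. Within plates A and B, counts were 547 and 265 for GDC-0879 against alone, 2405 and 1733 for MEK inhibitors (3692 with both plates), 1 and 11 for GDC-0879 minus MEK inhibitors (123), 52 and 20 for minus dabrafenib (250), 195 and 113 for minus PLX8394 (772), 39 and 7 for minus RAF709 (92), and 143 and 65 for minus sorafenib (489). GDC-0879 minus MEK inhibitors gave 59 with no replicate block, 74 in the additive design and 186 with DESeq2, where 51.6% were higher in place of 67.5%. GDC-0879 minus RAF709 gave 47 with no replicate block and 151 with DESeq2 (41.1% higher in place of 52.2%). The arm difference gave 1 in the 16-library fit and 8 with DESeq2. The cause of these changes was not tested; within a plate fewer libraries enter.

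Leaving out 1 library in turn, counts ran from 792 to 1388 for GDC-0879 against alone, 253 to 632 with hydroxychloroquine, 184 to 538 with the Vps34 inhibitor, 1 to 7 for the arm difference, 3449 to 3713 for MEK inhibitors, 26 to 126 for GDC-0879 minus MEK inhibitors, 122 to 251 for minus dabrafenib, 472 to 777 for minus PLX8394, 18 to 97 for minus RAF709 and 305 to 490 for minus sorafenib. The lowest count came without the GDC-0879 library with the Vps34 inhibitor on plate B, except with hydroxychloroquine, for the arm difference and for MEK inhibitors. Signs changed for ETV4 (−0.40 within plate A, −0.16 without the Vps34 inhibitor library of plate B, 0.47 without that of plate A, up to 0.76 within plate B), PAFAH1B2 (−0.55 within plate B, −0.30 without the Vps34 inhibitor library of plate A, 2.38 without that of plate B, up to 4.18 within plate A) and DIS3L (−0.34 within plate A, −0.43 without the hydroxychloroquine library of plate B, 2.25 without that of plate A, up to 3.75 within plate B). Of 93 genes named for GDC-0879 against alone, 21 lost their call without some single library; so did 5 of 10 for RAF709 (SPRY4, BLZF1, KIAA0930, RRBP1 and ITPRIPL2) and 0 of 10 for MEK inhibitors, dabrafenib, PLX8394 and sorafenib each. Depth limits genes of a few CPM, such as SPRY2, ETV4 and ETV5.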

Other observations

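Smaller lists give further groups. Of 7 targets of the aryl hydrocarbon receptor 2 were higher and none lower with GDC-0879 (median 0.43): the estrogen hydroxylase CYP1B1 rose by 1.58 ± 0.33 and the aldehyde dehydrogenase ALDH3A1 by 0.54 ± 0.11. The CYP1B1 call was lost without the hydroxychloroquine library of plate B (1.09). Of 8 metallothioneins, which bind zinc and copper, 2 were higher (median 0.32), MT1E by 0.97 ± 0.22 and MT1F by 1.10 ± 0.37, the latter lost when any of the 4 GDC-0879 libraries was left out (1.04 to 1.16). Of 17 YAP and TEAD targets 3 were lower and 1 higher (median −0.20): NT5E, the YAP paralogue gene WWTR1 (−1.03 ± 0.22) and the coagulation factor gene F3 (−0.48 ± 0.15, a call lost without any 1 GDC-0879 library) were lower, and the adaptor AJUBA rose by 1.03 ± 0.20. These shares stand beside 5.81% higher and 5.12% lower over all genes.

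Among ATF4 targets, the netrin receptor UNC5B rose by 1.36 ± 0.15, while ASNS (0.50 ± 0.13) lost its call without the Vps34 inhibitor library of plate B (0.41). The lists of glucose-sensing arrestins (4 genes) gave no call, that of p53 targets (19) 1 lower and that of FOXO and PI3K readouts (15) 1 lower (edgeR). These shares are near the 5.12% of all genes called lower. Of 15 cyclins and CDK inhibitors 2 were lower, CCND1 and CDKN1A (−0.68 ± 0.18), the latter lost without the Vps34 inhibitor library of plate A (−0.49) or the hydroxychloroquine library of plate A (−0.63). Of 8 ID genes and TGF-beta or BMP readouts 1 was lower and 1 higher; the latter was BAMBI (0.71 ± 0.24), a call lost when any of the 4 GDC-0879 libraries was left out (0.60 to 0.81).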
